A study of Mus musculus with 13 samples.

Results

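The genes described here are 40 cell cycle and proliferation genes in mouse liver, from the G1 cyclins through DNA replication to mitosis and cytokinesis. They were chosen by name, as the probes whose gene name in the scanner files is one of the 40, out of 30028 gene names on the array. Each gene was read from its brightest probe, and 32 of the 40 passed the filter on dim probes and were tested among 19534 genes in all.

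Liver RNA of female C57BL6 mice, 12 weeks old by the labels, was hybridized to 13 one-colour Agilent arrays on 5 slides. The groups are HFHS vehicle, the diet labelled HFHS (high fat in the series text) with vehicle, 5 arrays; ST pollutants, the standard diet plus 4 pollutants given together, which the labels do not name, 5 arrays; and ST vehicle, the standard diet with vehicle, 3 arrays. The labels call the arrays biological replicates, and the series text can be read as placing the mixture in either diet, so the label of each array was followed. The title sets the mixture beside a high-fat challenge. Levels are on the log2 scale of the processed signal, where 0 is the 75th percentile of the probes of that array, so a level of -2 lies 2 log2 units below that percentile.

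The adult liver is a largely quiescent organ whose hepatocytes can re-enter the cell cycle after tissue loss or injury. Cyclin D and cyclin E kinases release E2F factors from the retinoblastoma protein, and E2F then drives the genes of replication, among them the MCM helicase that is loaded on origins. Later in the cycle the MMB-FOXM1 complex acts through CHR elements in promoters to switch on the genes of mitosis. Among these are the genes of the cyclin B kinase, Aurora and Polo kinases and the spindle motors. RNA of whole liver mixes hepatocytes with Kupffer, endothelial, blood and other cells, so more cycling cells and more RNA per cell cannot be told apart in these values.

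ST vehicle replicate 3 stood apart in ways that reach beyond the cell cycle. Although every array is labelled female, 2 Y-linked transcripts were well above background on that array and on no other: Eif2s3y at -2.79, against -7.72 to -6.37 on the other 12 arrays, and Ddx3y at -3.17, against -7.81 to -5.04. Kdm5d and Uty, also Y-linked, were not well above background on any array. Kdm5d was still highest on that array, at -5.93 against -7.47 to -6.54, while both probes of Uty lay within the range of the others. Both probes of Xist, the RNA of the inactive X chromosome, lay within the range of the other arrays (0.44 and -0.68, against -0.27 to 0.69 and -0.95 to -0.27). Liver transcripts of male-biased expression in mice were highest on that array, Hsd3b5 at 2.17 against -4.85 to -0.84 and Cyp4a12b at 0.91 against -3.62 to -1.49. These genes were chosen after their values were seen, and the part of a mixed or exchanged sample in the results was not tested. The group comparisons with ST vehicle are therefore also given without that array. The 75th percentile lay between 782 and 1354 intensity units per array, with 62.8% to 69.5% of probes well above background. ST vehicle replicate 3, at 869 units and 66.0%, was within both ranges.

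Mitotic genes were at their highest on ST vehicle replicate 3. Over the 32 members tested, that array lay a median of 1.47 log2 units above the mean of ST vehicle replicates 1 and 2, while over all genes the median was 0.02. The 17 members of mitotic entry, mitotic kinases, checkpoint, chromosomes and spindle had a median difference of 2.09, and 16 of them were at least 2-fold higher. In all, 18 of 32 members were at least 2-fold higher on ST vehicle replicate 3 than the mean of replicates 1 and 2, where 3.01% of all genes were. For 23 of 32 members it was the highest of the 13 arrays, against 10.2% of all genes. The members were proposed with this array in view, so these values are a description and carry no test.

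**Figure D1:**
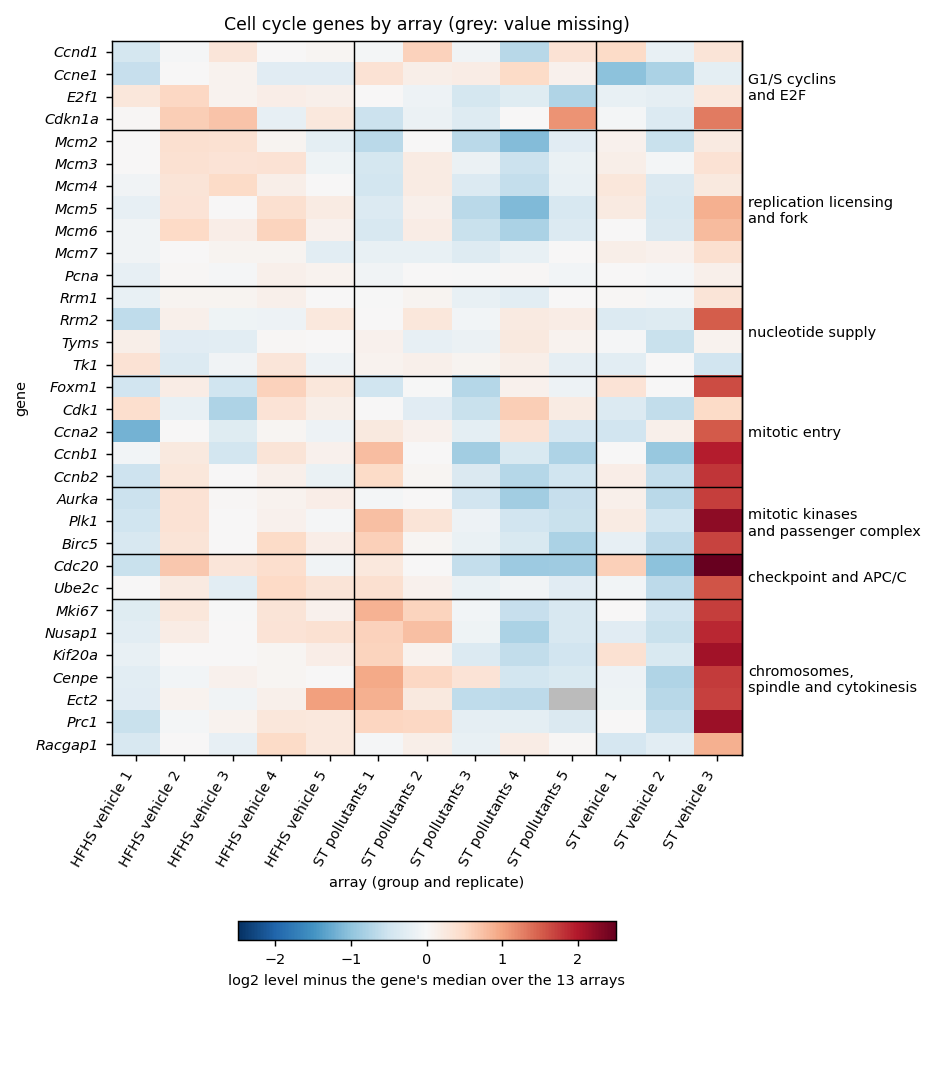
Level of each of the 32 tested members (rows, grouped by role) on each of the 13 arrays (columns), as the log2 level minus the gene's median over the arrays; grey marks a missing value. The rows of mitosis are red on ST vehicle 3, where the 17 mitotic members had a median difference of 2.09 from ST vehicle 1 and 2, and pale on most other arrays.

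The genes that start mitosis illustrate the size of the difference. Ccnb1, cyclin B1, was at -0.96 on ST vehicle replicate 3, against -2.91 and -3.86 on ST vehicle replicates 1 and 2, and it lay between -3.37 and -2.60 on the HFHS vehicle arrays and between -3.79 and -2.15 on the ST pollutants arrays. That is 5.37-fold above the mean of the other ST vehicle arrays, and no array of either other group reached it. Ccnb2, cyclin B2, was at 0.64 on ST vehicle replicate 3, against -0.97 and -1.73 on replicates 1 and 2. Ccna2, cyclin A2, which acts in S phase and at the entry into mitosis, was at -0.91 against -2.91 and -2.32. Foxm1, the transcription factor that activates many genes of G2 and mitosis, was at -1.69 against -2.97 and -3.32. All 4 of these genes had their highest level of the 13 arrays on ST vehicle replicate 3. The gap to the next highest array was 1.06 log2 units for Foxm1, 1.16 for Ccna2, 1.19 for Ccnb1 and 1.30 for Ccnb2.

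Cdk1, the kinase partner of these cyclins, was the exception among the 17. Its probe of highest mean was at -2.69 on ST vehicle replicate 3, against -3.51 and -3.77 on replicates 1 and 2, and ST pollutants replicate 4 was higher at -2.55. A second Cdk1 probe that also passed the filter was at -2.05 on ST vehicle replicate 3 and -4.44 and -4.86 on replicates 1 and 2, a difference of 2.60, and its 10 values on the HFHS vehicle and ST pollutants arrays lay between -4.76 and -3.68. The 2 probes of Cdk1 therefore disagree on how far the array stood from the rest, 0.94 log2 units by the brighter probe and 2.60 by the dimmer.

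The kinases and the checkpoint genes showed wide gaps as well. Cdc20, the activator of the anaphase-promoting complex that ends metaphase, was at -2.47, -1.24, -1.61, -1.49 and -2.0 on the HFHS vehicle arrays, at -1.64, -1.91, -2.50, -2.82 and -2.80 on the ST pollutants arrays, and at -1.31, -2.93 and 0.99 on the ST vehicle arrays. ST vehicle replicate 3 was thus 2.23 log2 units above the next highest array and 8.62-fold above the mean of the other ST vehicle arrays, the largest difference of any member tested. Plk1, the Polo kinase of centrosome maturation and mitotic progression, was at -3.26, -2.39, -2.76, -2.65 and -2.78 on the HFHS vehicle arrays, at -2.01, -2.43, -2.88, -3.24 and -3.31 on the ST pollutants arrays, and at -2.56, -3.25 and -0.52 on the ST vehicle arrays. Without ST vehicle replicate 3 the groups overlapped for both genes. Aurka, the Aurora kinase of the spindle poles, was at -0.93 on ST vehicle replicate 3, against -2.53 and -3.32 on replicates 1 and 2. Birc5, survivin, a subunit of the chromosomal passenger complex, was at 1.24 against -0.64 and -1.09, and Ube2c, the ubiquitin-conjugating enzyme of the anaphase-promoting complex, was at -0.61 against -2.26 and -2.85.

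**Figure D2:**
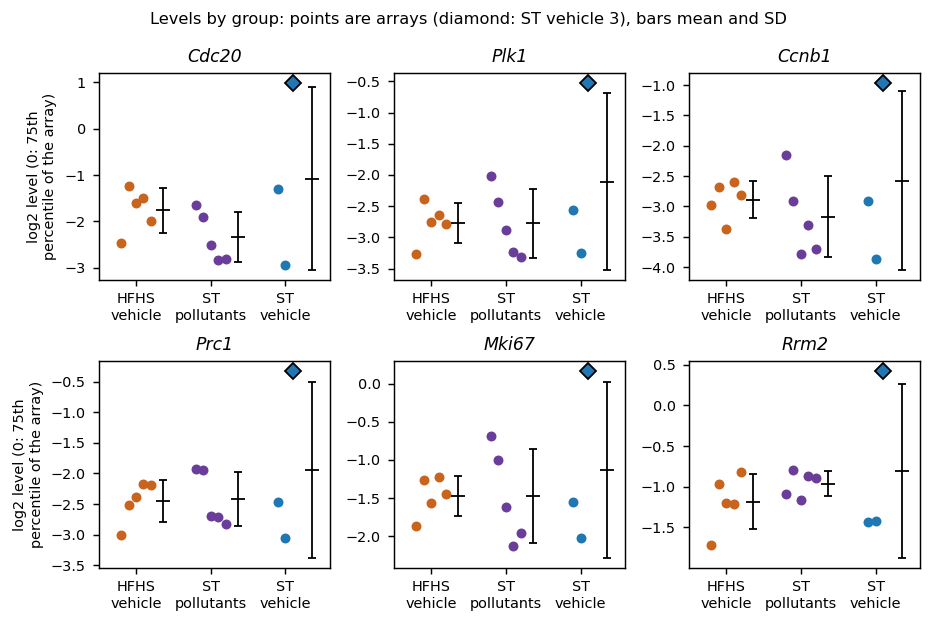
Log2 levels (0 is the 75th percentile of the array) of 5 mitotic genes and Rrm2 by group; points are arrays, the diamond is ST vehicle 3, and bars give the mean and SD of the group. The diamond lies above every other point in each panel, for Cdc20 at 0.99 with the next highest array at -1.24, and it widens the SD of the ST vehicle group.

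Genes of the chromosomes, the spindle and cytokinesis were likewise highest on that array. Mki67, the coat protein of mitotic chromosomes that serves as the Ki-67 proliferation marker, was at -1.86, -1.26, -1.56, -1.22 and -1.44 on the HFHS vehicle arrays, at -0.68, -1.0, -1.61, -2.13 and -1.95 on the ST pollutants arrays, and at -1.55, -2.02 and 0.17 on the ST vehicle arrays. Prc1, which bundles the microtubules of the central spindle, was at -0.32 on ST vehicle replicate 3, against -2.46 and -3.06 on replicates 1 and 2. The kinesin Kif20a and the centromere motor Cenpe differed by 2.09 and 2.18 log2 units between ST vehicle replicate 3 and the mean of the other ST vehicle arrays. Nusap1, a spindle microtubule protein, differed by 2.30, and Ect2, the exchange factor that activates RhoA at the cleavage site, by 2.10. Racgap1, the partner of Ect2 in the central spindle, differed least of the 7 genes of this role, by 1.21. Each of the 7 was highest on ST vehicle replicate 3, and 1 of them, Ect2, lacks a value on ST pollutants replicate 5, which its fits leave out.

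Genes of G1, of replication and of nucleotide supply differed much less on that array. The median difference between ST vehicle replicate 3 and the mean of replicates 1 and 2 was 0.57 over the 4 genes of G1/S cyclins and E2F, 0.30 over the 7 of replication and 0.35 over the 4 of nucleotide supply. The 6 MCM genes, which encode the replicative helicase, had a median of 0.37, with Mcm5 (0.99) and Mcm6 (0.98) at the top and Mcm7 (0.27) at the bottom. Pcna, the sliding clamp of DNA polymerase, differed by 0.13, and Ccnd1, cyclin D1, by 0.18. Rrm2, the regulated subunit of ribonucleotide reductase, was the exception in its role: it was at 0.43 on ST vehicle replicate 3, against -1.44 and -1.42 on replicates 1 and 2, while Rrm1, the large subunit, was at -0.04 against -0.35 and -0.39. Tyms, thymidylate synthase, was at -2.68 against -2.78 and -3.31. Tk1, the thymidine kinase of S phase, was lowest of all 13 arrays on ST vehicle replicate 3, at 1.85 against 2.06 and 2.33, and its second probe that passed the filter was 0.19 lower as well. Cdkn1a, the p21 inhibitor of cyclin-dependent kinases, was 1.49 higher on ST vehicle replicate 3 by its brightest probe, but 0.24 higher and 0.53 lower by its 2 other probes, so its probes disagree.

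No other array stood as far above its group in these genes. Each array was set against the mean of the rest of its own group, and the member medians of the 12 other arrays ran from -0.94 for ST vehicle replicate 2 to 0.31 for ST pollutants replicate 2. The value of ST vehicle replicate 2 contains the high array, since replicate 3 is in the mean that it is set against. Among the 5 HFHS vehicle arrays, 0 or 1 members were at least 2-fold above the rest of the group, and among the 5 ST pollutants arrays 0 to 2 were. Over all 19534 genes tested, 48 to 786 were so on HFHS vehicle arrays and 48 to 700 on ST pollutants arrays. On ST vehicle replicate 3 it was 587 genes, fewer than on replicate 1 of either other group. Those arrays were set against a mean of 4 arrays, and ST vehicle replicate 3 against a mean of 2. ST pollutants replicate 1 had the second highest median over the mitotic members, 0.86 above the rest of its group. ST vehicle replicate 3 shared slide 5 with HFHS vehicle replicate 5 and ST pollutants replicate 5, whose mitotic medians were 0.20 and -0.50.

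**Figure D3:**
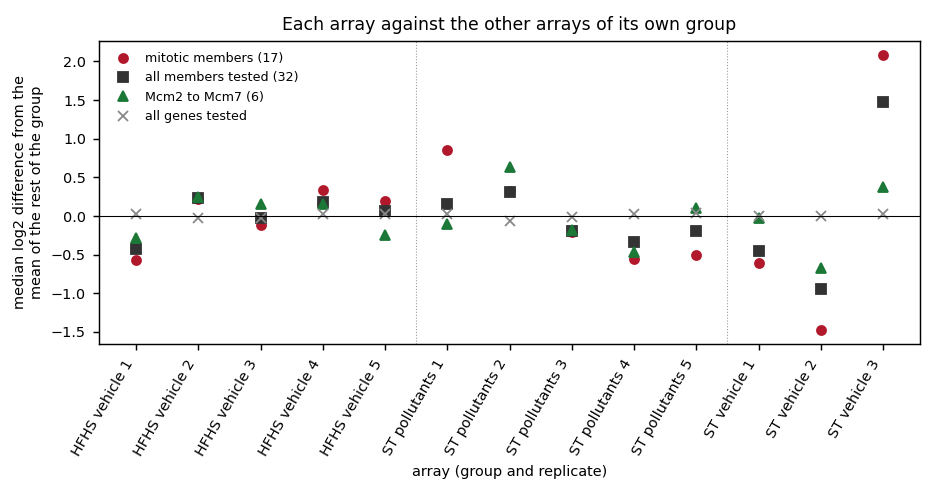
Median log2 difference of each array from the mean of the other arrays of its own group, over the 17 mitotic members, all 32 members tested, Mcm2 to Mcm7, and all genes tested. ST vehicle 3 is at 2.09 for the mitotic members and 0.02 for all genes, and no other array is above 0.86 in any of the 4 sets.

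Further probes of the same genes mostly gave the same direction. Probes that passed the filter and had not been chosen differed between ST vehicle replicate 3 and the mean of replicates 1 and 2 by 1.99 for Mki67, 2.36 for Ube2c, 1.73 for Birc5 and 0.93 for Racgap1. The second probe of Mcm3 differed by 0.28, close to the 0.30 of its first. For Foxm1 a second probe, well above background on 7 arrays and not tested, differed by 0.55, less than the 1.46 of the probe used, and for Ect2 a second probe, well above background on 2 arrays and not tested, was 0.29 lower.

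The 8 members that were not tested were dim. By their brightest probes, Ccne2, Cdc6, Cdc25c, Aurkb and Bub1 were well above background on 0 of the 13 arrays. Kif11 was so on 2, Bub1b on 7 and Top2a on 8. A second, dimmer Cdc6 probe was well above background on 2 arrays and did not pass the filter. Top2a, the topoisomerase that untangles mitotic chromosomes, was at -2.43 on ST vehicle replicate 3, and its highest value on another array was -3.65. Bub1b, the checkpoint kinase-like protein BubR1, was at -3.12 on ST vehicle replicate 3 and at -2.75 on ST pollutants replicate 5, where it was highest. Kif11, the kinesin that separates spindle poles, was well above background on ST vehicle replicates 3 (-4.23) and 1 (-4.11) and not on replicate 2. Of Ccne2 (cyclin E2), Cdc6 (an origin loading factor), Cdc25c (a phosphatase that activates Cdk1), Aurkb (the kinase of the passenger complex) and Bub1 (a kinetochore kinase), the arrays give no usable level.

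Mouse promoters of these genes are shown because the members that were high together on ST vehicle replicate 3 belong to classes with known promoter elements. RefSeq windows from 250 bases before to 50 bases after the gene start (build GRCm38.p6) were in the table for 32 of the 40 members. The CHR letters TTTGAA, on either strand, were in 43.8% of these 32 windows and in 18.1% of the windows of 27025 genes. By role, they were in 6 of 8 genes of chromosomes, spindle and cytokinesis, 3 of 4 of checkpoint and APC/C, 2 of 3 of mitotic entry and 2 of 3 of mitotic kinases, and in 1 of 7 of replication and 0 of 4 of nucleotide supply. CCAAT letters, on either strand, were in 24 of the 32, or 75%, and in 37.9% of all genes. An E2F-like run, TTTNNCGC on either strand, was in 5 of the 7 replication genes and 1 of the 8 genes of chromosomes, spindle and cytokinesis, with 5.27% among all genes. Such a match is letters in a window and no shown site, and the shares carry no test. In the 5 windows below, which run from 120 bases before to 15 bases after the gene start, capitals mark CHR and CCAAT letters on either strand in the first 4 and the E2F-like run on either strand in Mcm6. They lie at chr4:118437329-118437463 (Cdc20, minus strand), chr9:70421540-70421674 (Ccnb2, minus strand), chr7:80294331-80294465 (Prc1, plus strand), chr2:164769809-164769943 (Ube2c, plus strand) and chr1:128359691-128359825 (Mcm6, minus strand), each printed along the strand of its gene.
Cdc20: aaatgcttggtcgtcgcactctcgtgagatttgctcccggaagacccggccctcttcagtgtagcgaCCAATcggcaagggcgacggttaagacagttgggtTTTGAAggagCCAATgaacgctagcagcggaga
Ccnb2: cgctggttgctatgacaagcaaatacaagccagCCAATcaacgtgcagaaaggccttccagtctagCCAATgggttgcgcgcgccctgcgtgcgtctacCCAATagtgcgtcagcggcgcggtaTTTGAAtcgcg
Prc1: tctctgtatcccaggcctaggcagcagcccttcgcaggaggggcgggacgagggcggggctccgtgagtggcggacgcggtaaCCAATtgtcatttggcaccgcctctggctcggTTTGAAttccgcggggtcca
Ube2c: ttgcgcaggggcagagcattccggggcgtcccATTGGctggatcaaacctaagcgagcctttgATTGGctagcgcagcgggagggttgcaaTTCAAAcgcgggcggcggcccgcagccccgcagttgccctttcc
Mcm6: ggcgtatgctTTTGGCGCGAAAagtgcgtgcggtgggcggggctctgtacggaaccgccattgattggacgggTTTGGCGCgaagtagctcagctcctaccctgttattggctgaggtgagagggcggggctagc

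Of the 18 members that were at least 2-fold higher on ST vehicle replicate 3, 15 have a window in the table, and 9 of those hold the CHR letters and 1 the E2F-like run. Of the tested members under 2-fold, 12 have a window, and 2 hold the CHR letters and 6 the E2F-like run. This split uses the array with which in view the members were proposed, and 16 of the 18 are mitotic members. It therefore largely repeats the shares by role and carries no test.

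Other genes of the cycle, taken from lists chosen with earlier results known, showed the same division on ST vehicle replicate 3. Of 50 other mitosis genes 29 were tested, their median difference from ST vehicle replicates 1 and 2 was 0.80, and 10 were at least 2-fold higher. The largest were Cdkn3 (2.61), a phosphatase that acts on cyclin-dependent kinases, the centrosome kinase Nek2 (2.37), Cdca3 (2.26), which takes part in the degradation of Wee1, and Cdca5 (2.12), sororin, which guards sister chromatid cohesion. Of 30 other S phase genes 26 were tested, with a median of 0.18 and 2 at least 2-fold higher, Uhrf1 (2.09), which maintains DNA methylation at replication, and the exonuclease Exo1 (1.17). Among 26 cell cycle brakes and p53 targets, 23 were tested, 2 were at least 2-fold higher (Gadd45g, 1.85, and Plk3, 1.24) and 1 was lower, the Cdk1-inhibiting kinase Wee1 (-1.04). Among 30 growth signals and regulators, 26 were tested and 1 was at least 2-fold higher, Myc (2.09), the transcription factor of growth. The share of all genes at 2-fold or more was 3.01%, so the 10 of 29 other mitosis genes stood well above it and the 2 of 26 S phase genes less so.

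Markers of other cells were not level on that array. The mean level of 7 tested neutrophil markers of 9 was -0.46 on ST vehicle replicate 3, against -1.22 and -1.33 on replicates 1 and 2, -1.73 to -0.87 on HFHS vehicle arrays and -1.32 to -0.89 on ST pollutants arrays. For 8 of 9 T and NK cell markers it was -0.16, against -0.77 and -0.96, -1.12 to -0.73 and -1.10 to -0.52. Both lists were thus at their highest there. So were 8 endothelial markers, at 1.21 against 0.97 and 0.99, and at most 1.11 on HFHS vehicle and 1.16 on ST pollutants arrays. The 7 stellate cell and fibroblast markers, at -0.20, were barely above the HFHS vehicle maximum of -0.21. The mean level of 8 of 10 erythroid markers was at its lowest, at 1.95 against 2.37 and 2.18 on the other ST vehicle arrays. Markers of adipocytes (-3.04 against -1.38 and -1.66) and of B and plasma cells (-2.98 against -2.40 and -2.48) were also lower than on those arrays. The 8 hepatocyte markers were at 7.10, against 7.02 and 7.02, and the 9 Kupffer cell markers were at 2.81, within the 2.14 to 2.98 of the ST pollutants arrays. Ahsp, Mpo and Ngp, defining markers of red cell and neutrophil precursors, did not pass the filter. The part of these cells in the level of the mitotic genes was not tested.

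The mitotic members varied together. Over the 13 arrays the median correlation between pairs of the 17 mitotic genes was 0.86, and over the 12 arrays without ST vehicle replicate 3 it was 0.64. For Mcm2 to Mcm7 it was 0.84 over 13 arrays and 0.86 over 12. All of these share the arrays and their scaling and are given with no test. The genes outside the member and pathway lists whose pattern was most like the mean of the mitotic members were Sgol1 (current symbol Sgo1), the shugoshin that protects centromeric cohesion, with r = 0.94 over 13 arrays and 0.85 over 12, and after it Gm11223, 1190002F15Rik (Lockd, a transcript downstream of Cdkn1b), Pkmyt1, Ncapd2, Arhgef39, Kif20b, Trim59 and 2 probes that the files do not name, with r of 0.89 to 0.92. Lockd was 3.14 log2 units higher on ST vehicle replicate 3 than the mean of replicates 1 and 2.

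The first group comparison asks what the HFHS diet did to these genes, with HFHS vehicle over ST vehicle. No member was called at an adjusted p under 0.05 by limma, 0 of 32, while 0.686% of all genes were, 46 higher and 88 lower, and 2356 genes had an unadjusted p under 0.05. The direction of the members depended on ST vehicle replicate 3. With all 13 arrays 23 of 32 members were lower on HFHS, with a median log2 fold change of -0.15, against -0.02 over all genes. Without that array 28 of 32 were higher, with a median of 0.30, against -0.01 over all genes. Still 0 members were called, against 0.215% of all genes. The median of the 17 mitotic members was -0.33 with all arrays and 0.36 without it. Within slides, the mitotic median of HFHS vehicle minus ST vehicle was -0.31 on slide 1, 0.77 on slide 2 and -1.62 on slide 5, the slide of ST vehicle replicate 3.

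For Cdc20 and Plk1 the direction turned without ST vehicle replicate 3, with no call either way. Cdc20 averaged -1.76 ± 0.48 on HFHS vehicle (SD, n = 5) and -1.09 ± 1.97 on ST vehicle (n = 3), a log2 fold change of -0.68 ± 0.66 (SE, limma adjusted p = 0.844) that became 0.36 ± 0.47 without ST vehicle replicate 3. Plk1 differed by -0.66 ± 0.50 with all arrays and by 0.14 ± 0.35 without it. The member nearest to a call with all arrays, Ccne1, was 0.49 ± 0.18 higher on HFHS vehicle (adjusted p = 0.296), and 0.71 ± 0.17 higher without that array (adjusted p = 0.176). Mcm7 was 0.26 lower (SE 0.10, adjusted p = 0.32), and 0.18 lower without that array (adjusted p = 0.703). The 95% intervals of Ccne1 (0.08 to 0.89) and Mcm7 (-0.49 to -0.04) with all arrays lay on one side of 0, with no call after adjustment.

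**Figure D4:**
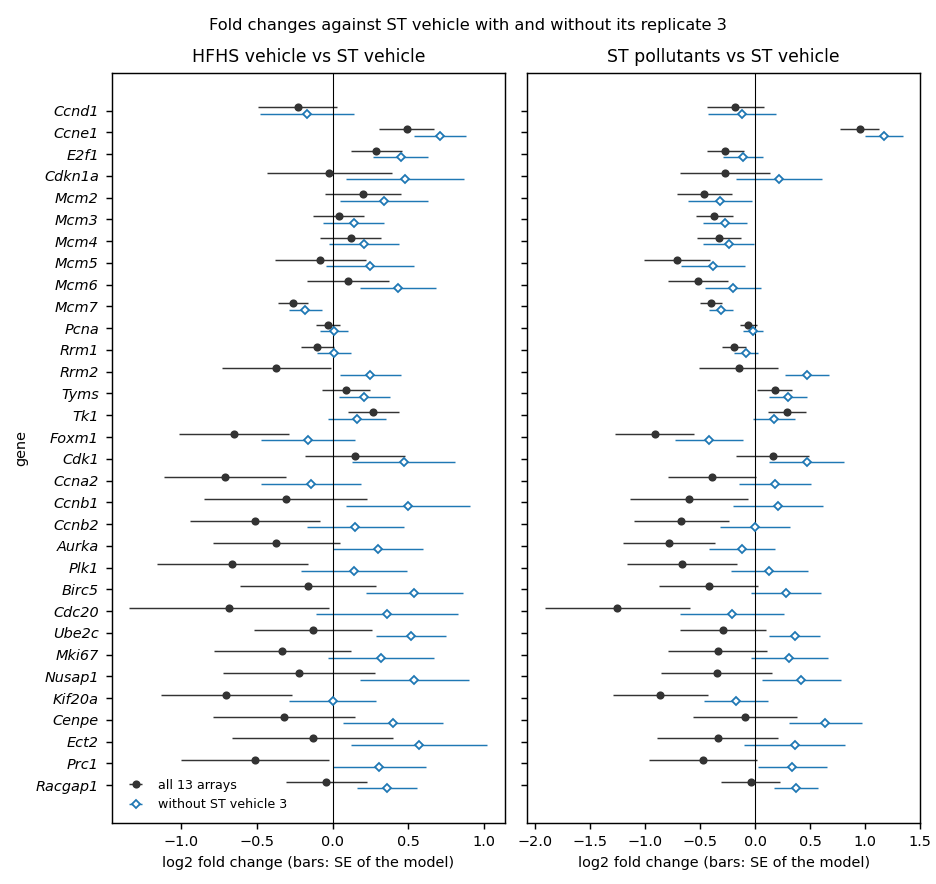
Log2 fold change of each tested member against ST vehicle, for HFHS vehicle (left) and ST pollutants (right); filled circles use all 13 arrays, open diamonds leave out ST vehicle 3, and bars are the SE of the model. The mitotic rows shift to the right by leaving out that array, their median passing to 0.36 for HFHS vehicle and to 0.28 for ST pollutants, and Ccne1 is to the right of 0 in both panels and both fits.

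The second comparison asks what the pollutant mixture did on the standard diet, with ST pollutants over ST vehicle. It shares the 3 ST vehicle arrays with the first, so a likeness of the 2 can come from them. 1 of 32 members was called, Ccne1, against 0.973% of all genes (105 higher, 85 lower). The member median was -0.35 with all arrays, 28 of 32 being lower, and 0.15 without ST vehicle replicate 3, where 17 were higher and 15 lower. Over all genes the median was -0.01 with all arrays and 0 without ST vehicle replicate 3. Without that array Ccne1 was again the 1 member called, against 0.235% of all genes. The mitotic median was -0.42 with all arrays and 0.28 without, and within slides it was 0.55 on slide 1, 0.76 on slide 2 and -2.27 on slide 5.

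Ccne1 encodes cyclin E1, which with Cdk2 drives the passage from G1 into S phase, and its probe lies at chr7:38882937-38882960 on mm9. It was at -0.83, -1.06, -1.01, -0.72 and -1.10 on the ST pollutants arrays, against -2.23, -2.0 and -1.45 on the ST vehicle arrays, and at -1.77, -1.20, -1.11, -1.48 and -1.49 on the HFHS vehicle arrays. Ccne1 was higher on ST pollutants than on ST vehicle by a log2 fold change of 0.95 ± 0.18 (SE, 1.94-fold, limma adjusted p = 0.0346), and by 1.17 ± 0.17 without ST vehicle replicate 3 (adjusted p = 0.0307). Within slides 1, 2 and 5 the difference was 1.40, 0.94 and 0.35. The call was lost with the slide as a block (0.89, adjusted p = 0.122), without ST vehicle replicate 1 (0.78, adjusted p = 0.132) and without replicate 2 (0.90, adjusted p = 0.116). It was also lost without HFHS vehicle replicate 2 (adjusted p = 0.0515) and without any single ST pollutants array (adjusted p of 0.0514 to 0.0817). It held in 9 of 25 other settings. Over all 25 the log2 fold change was 0.73 to 1.17, with limma adjusted p of 0.0277 to 0.261. A second Ccne1 probe, well above background on 3 arrays, was not tested.

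The other genes of the list gave no call in that comparison. Mcm7 came next, at 0.59, 0.59, 0.45, 0.60 and 0.78 on the ST pollutants arrays, against 0.93, 0.89 and 1.18 on the ST vehicle arrays. The difference was -0.40 ± 0.10 (limma adjusted p = 0.105), or -0.31 ± 0.11 without ST vehicle replicate 3 (adjusted p = 0.391). The MCM genes had a median of -0.43 with all arrays and -0.29 without that array, and within slides it was -0.57 on slide 1, 0.55 on slide 2 and -0.51 on slide 5, so slide 2 ran the other way. In the other lists, Wee1 was higher by 1.35 ± 0.24 on ST pollutants (adjusted p = 0.0246), at 0.12, 0.14, 0.01, 0.09 and -0.23 against -1.35, -0.62 and -2.02 on ST vehicle, and without ST vehicle replicate 3 by 1.01 ± 0.19, with no call (adjusted p = 0.0726). Il6ra, the interleukin-6 receptor, whose signal primes hepatocytes for division, was higher by 0.73 ± 0.12 (adjusted p = 0.0198), and without that array by 0.66 ± 0.14, with no call (adjusted p = 0.0917). With the slide as a block both calls were lost, at 1.31 for Wee1 (adjusted p = 0.072) and 0.66 for Il6ra (adjusted p = 0.0801). Wee1 was 1 of 23 tested in its list and Il6ra 1 of 26, where 0.973% of all genes were called. Over 25 other settings the call of Wee1 held in 14 and that of Il6ra in 17. In the lists of other S phase and other mitosis genes 0 of 26 and 0 of 29 were called, with and without ST vehicle replicate 3.

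The third comparison sets the diet against the mixture, HFHS vehicle over ST pollutants, and uses no ST vehicle array in its fold changes. No member was called, 0 of 32, against 3.87% of all genes (307 higher and 449 lower). Before adjustment, 6 members, E2f1 and Mcm2 to Mcm6, were higher on HFHS vehicle at a p under 0.05, which is 6 of 32 where 7.64% of all genes were. The MCM genes had a median log2 fold change of 0.54, against 0.14 over the 32 members and 0 over all genes. The mitotic members had a median of 0.16.

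E2f1, the transcription factor that activates replication genes, was at -1.27, -1.04, -1.47, -1.39 and -1.42 on the HFHS vehicle arrays, against -1.55, -1.68, -1.99, -1.86 and -2.30 on the ST pollutants arrays. Its arrays did not overlap between the groups, with HFHS vehicle higher. That pattern held for 1 of 32 members, near the 2.74% of all genes. The log2 fold change was 0.56 ± 0.15 (SE, 1.47-fold, limma adjusted p = 0.0591), and within slides 1 to 5 the difference was 0.29, 0.63, 0.52, 0.48 and 0.88. With ST vehicle replicate 3 left out of the fit, the shared variance changed and E2f1 was called (adjusted p = 0.0488), 1 of 32 against 3.64% of all genes. It was also called without ST pollutants replicate 1 (adjusted p = 0.0448), under quantile normalization and in the authors' table. It was not called with the slide or the replicate number as a block. With single arrays left out, its limma adjusted p ran from 0.0448 to 0.153. ST vehicle, at -1.74, -1.78 and -1.29, lay between and overlapped both groups, and neither comparison with it called E2f1.

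The MCM genes are subunits of the helicase that E2F activity supplies. Mcm6 was at 1.31, 1.89, 1.56, 1.96 and 1.50 on the HFHS vehicle arrays, at 0.99, 1.59, 0.84, 0.60 and 1.06 on the ST pollutants arrays, and at 1.40, 1.03 and 2.19 on the ST vehicle arrays. Mcm2 was at -2.55, -2.14, -2.16, -2.48 and -2.80 on the HFHS vehicle arrays, against -3.22, -2.54, -3.22, -3.63 and -2.83 on the ST pollutants arrays. In each gene ST pollutants replicate 2 reached into the range of HFHS vehicle. The log2 fold changes were 0.66 ± 0.22 for Mcm2, 0.63 ± 0.23 for Mcm6, 0.63 ± 0.26 for Mcm5, 0.45 ± 0.17 for Mcm4 and 0.41 ± 0.15 for Mcm3, with limma adjusted p of 0.118 to 0.211, and 0.13 ± 0.09 for Mcm7. Pcna, at 2.26 ± 0.13 on HFHS vehicle and 2.23 ± 0.05 on ST pollutants (SD, n = 5 each), differed by 0.03, with a 95% interval of -0.13 to 0.19. Within slides 1 to 5 the MCM median was 0.35, 0.21, 0.70, 1.03 and 0.12, above 0 on every slide.

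**Figure D5:**
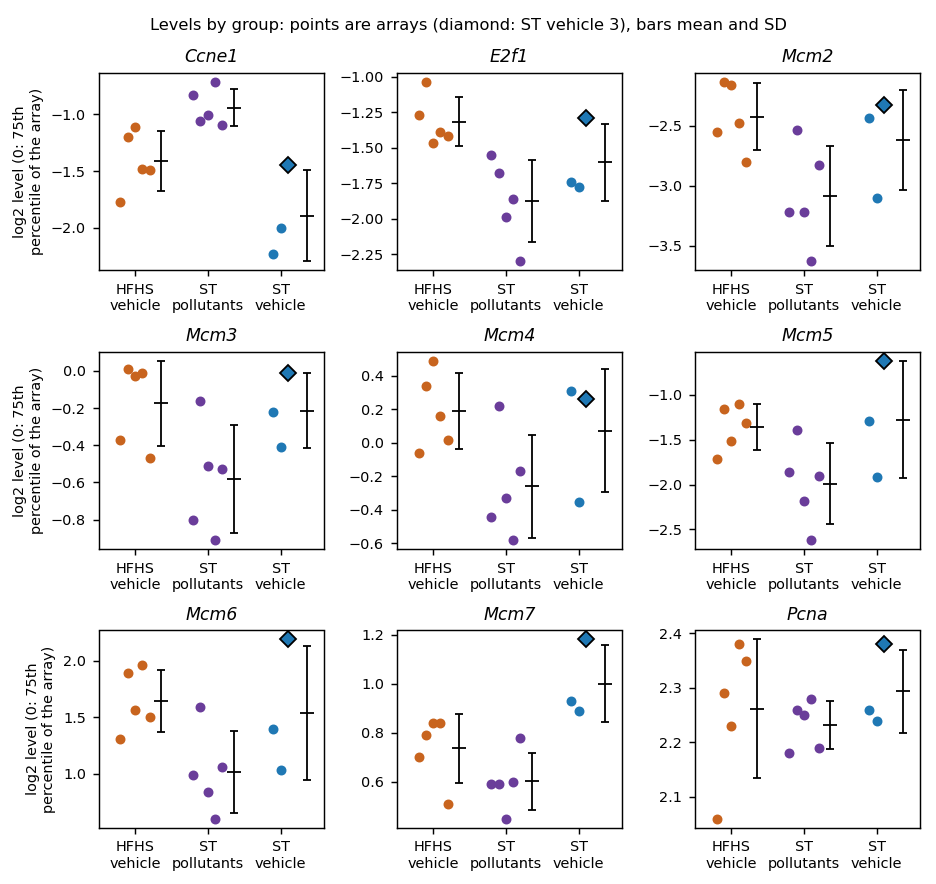
Log2 levels (0 is the 75th percentile of the array) of Ccne1, E2f1, Mcm2 to Mcm7 and Pcna by group; points are arrays, the diamond is ST vehicle 3, and bars give the mean and SD. Ccne1 is lowest in ST vehicle and highest in ST pollutants, the means of E2f1 and of each MCM gene are lowest in ST pollutants, and Pcna differs by 0.03 between HFHS vehicle and ST pollutants.

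Ccne1 ran the other way from E2f1 and the MCM genes, lower on HFHS vehicle than on ST pollutants by 0.47 ± 0.16, with an unadjusted p of 0.0125 and no call (adjusted p = 0.132). Its highest HFHS vehicle array, at -1.11, lay just below its lowest ST pollutants array, at -1.10. In the other lists, S phase genes with a call were higher on HFHS vehicle: Rfc4, a subunit of the clamp loader, by 0.44 ± 0.08 (adjusted p = 0.0085), Pold1, the catalytic subunit of DNA polymerase delta, by 0.38, and the dUTPase Dut by 0.35, which is 3 of 26 tested where 3.87% of all genes were called. The call of Rfc4 held in 22 of 25 other settings, that of Pold1 in 13 and that of Dut in 5. Rfc4 was at 0.36, 0.58, 0.29, 0.44 and 0.42 on the HFHS vehicle arrays, against 0.04, -0.02, -0.03, -0.05 and -0.06 on the ST pollutants arrays, with no overlap. Of the brakes and p53 targets, Ccng1 (0.46) and Zmat3 (0.43), both induced by p53, were higher, 2 of 23 tested, and each call held in 13 of 25 settings. Of the growth list, 2 of 26 were called, both lower on HFHS vehicle. Il6ra differed by -0.76 (adjusted p = 0.00587), a call that held in 24 of 25 settings. Cdk2, the partner of cyclin E, differed by -0.35 (adjusted p = 0.0314), a call that held in 12 of 25 settings, and by 0.01 with normexp background correction (adjusted p = 0.978). No gene of 29 other mitosis genes was called. HFHS vehicle arrays differed widely in pancreatic acinar transcripts, with a mean level of 8 tested markers of -2.86 to 6.98, against -3.17 to -1.71 on ST pollutants, and the part of these transcripts in the comparison was not tested.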

How the data were processed

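Intensity values on a linear scale were taken from the deposited scanner output, which per the file headers came from Agilent Feature Extraction 11.5.1.1, with 0.1 ug of RNA per array and Cy3 as the label. A table of log2 values for 26082 probes, normalized by the authors (limma, per the submitters' processing notes), served as an alternative. Its log scale was read from the values.

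Control spots were left out and outlier spots set to missing (128 values among genes tested). The log2 processed signal was averaged per probe, and the 75th percentile of each array was subtracted. The filter kept 25030 of 39429 probes, those that all arrays of 1 or more groups marked as well above background, and the probe of highest mean per gene was used. limma 3.58.1 in R 4.3.3 fitted 1 model to 13 arrays with 3 contrasts, two-sided, and Benjamini-Hochberg adjustment over 19534 genes. Adjusted p-values given for another setting come from limma refitted under that setting and adjusted over the genes it tested. Named genes are the 40 members, pathway genes called or among the 4 most different per list on ST vehicle replicate 3, and the 10 genes most like the mitotic mean. Members, lists and tests were chosen with earlier results of these data known. The script was tested on simulated data. Normalization to a percentile gives levels relative to other genes of the array. The alternatives were other background corrections, scalings, filters, probe rules, blocks and arrays left out.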

Additional observations from a re-analysis of the deposited data

Results flagged for a closer look

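In 2 of the 64 groups of 5 arrays examined for the tested members, a single array lay far from the other 4, and chance gives about 5%. Ccna2, cyclin A2, was at -3.63 on HFHS vehicle replicate 1, with the other HFHS vehicle arrays at -2.74 to -2.39, so that the gap made up 0.72 of the range of the group. Tk1, thymidine kinase, was at 2.10 on ST pollutants replicate 5, with the other ST pollutants arrays at 2.40 to 2.47, a gap of 0.821 of the range. The ST vehicle group holds 3 arrays and was not examined in this way.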

How the results depend on the processing

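The direction of the members against ST vehicle rested on ST vehicle replicate 3. With 1 array left out at a time, the median member log2 fold change ran from -0.51 to 0.30 for HFHS vehicle and from -0.66 to 0.15 for ST pollutants, above 0 in each only without that array, and from 0.05 to 0.21 between HFHS vehicle and ST pollutants. The difference of ST vehicle replicate 3 from the other ST vehicle arrays was 1.32 or 1.51 against either alone, and 0.95 to 1.58 under the other settings, lowest in the authors' table. No member was called for HFHS vehicle against ST vehicle in any setting. For ST pollutants against ST vehicle the count was 1 or 0 with arrays left out singly, and 0 under normexp, median scaling, the authors' table, no filter, the slide block, with slide 1 left out, with HFHS vehicle replicates 3, 4 and 5 left out, and with ST vehicle replicate 3 left out beside a slide block, a setting added after the data were seen. For HFHS vehicle against ST pollutants it was 1, E2f1, under quantile normalization and in the authors' table, and 0 to 1 with single arrays left out.

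Deviations from the group mean correlated between same-numbered arrays at -0.03 to 0.56 where they shared a slide, and at -0.17 and -0.15 where they did not, so the numbers were not taken to pair all arrays. The replicate number as a block gave 0 member calls in each comparison, Ccne1 at 0.97 (adjusted p = 0.0906) among them. Calls of other cell cycle genes also moved: with normexp the Cdk2 difference between HFHS vehicle and ST pollutants was 0.01, and the cause was not tested. Over all genes, the share called ran from 0.00512% to 0.845% for HFHS vehicle and from 0.0154% to 1.31% for ST pollutants against ST vehicle, and from 0.00512% to 4.43% between HFHS vehicle and ST pollutants, each lowest without slide 1. Normexp gave 87 higher and 205 lower genes in the last. The number of arrays, 3 in ST vehicle, limits the precision, and members near background have less reliable levels.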
